A study of Mus musculus with 4 samples.

Results

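The 7 genes described here, Phox2a, Hand1, Hand2, Gata2, Gata3, Isl1 and Insm1, encode transcription factors of the sympathoadrenal lineage. They were taken by symbol, out of the 33565 genes counted, and all 7 were present in the files. RNA was measured by CapSeq, a split-pool method in which the BC1 barcode of a cell records the plate well and so the sample. N2a (Neuro-2a) is a mouse neuroblastoma line and NIH/3T3 a mouse fibroblast line, and both were grown in DMEM with fetal bovine serum. The mESCs (mouse embryonic stem cells) were of the E14TG2a line and were grown on gelatin with serum, leukemia inhibitory factor, CHIR99021 and PD0325901. The labels name no other treatment or genotype. All 3 lines went into 1 library, so there was no replicate of any line, no test between lines was possible and no p-value is given.

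Sympathetic neurons and the chromaffin cells of the adrenal medulla arise from the neural crest, and neuroblastoma is a tumor of this lineage. Phox2a is a homeodomain factor that switches on genes for making noradrenaline, and Hand1 and Hand2 are basic helix-loop-helix factors that bind E-boxes as dimers with E proteins. Gata2 and Gata3 are zinc finger factors that bind GATA sites, Isl1 is a LIM homeodomain factor, and Insm1 is a zinc finger factor of neuroendocrine and sympathoadrenal progenitors. In normal sympathetic ganglia these factors are made together and regulate one another. Several also act elsewhere: Hand1 in trophoblast and heart, Hand2 in heart and limb, Gata2 in blood, and Gata3 in trophectoderm and T cells.

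After cells with under 1000 UMIs (unique molecular identifiers, each standing for 1 captured transcript) or over 20% mitochondrial UMIs were removed, 2323 N2a cells, 2037 NIH/3T3 cells and 2137 mESCs remained. The median N2a cell held 6185 UMIs, the median NIH/3T3 cell 4863 and the median mESC 4803, and no cell barcode was shared between lines (0 barcodes). The UMIs in these cells totalled 17955221, 11697865 and 12322098, so a count of 0, which allows up to 3 UMIs, allowed a level of up to 0.167, 0.256 and 0.243 CPM (counts per 1e6 UMIs summed over the cells of a line). The 95% intervals, exact Poisson for summed UMIs and exact binomial for percentages of cells, reflect counting error alone. The line labels were checked on marker lists: 7 of 12 neuronal and chromaffin markers were at least 4-fold above both other lines in N2a, 7 of 11 fibroblast markers in NIH/3T3, and 10 of 11 pluripotency markers in mESCs. The fibroblast marker Postn and the pluripotency marker Sox2 had 0 UMIs in every line and are not among the 11. Of the fibroblast markers, Fn1 was highest in mESCs, at 642 CPM against 411 in NIH/3T3. Acta2 was highest in N2a, at 1.73 CPM against 0.171 in NIH/3T3. Of the N2a markers, 5 were under 1 CPM in N2a: Dbh, Ddc, Stmn2, Nefm and Nefl. The last 4 passed the same rule in mESCs, at 57.1, 162, 17.4 and 49.3 CPM.

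The genes stand apart on the mouse genome (GRCm39, GENCODE M39). Phox2a lies at chr7:101467514-101471933 on the plus strand, Hand2 at chr8:57774011-57777677 plus, Gata2 at chr6:88170559-88184018 plus, and Insm1, a gene of 1 exon, at chr2:146063841-146066940 plus. Hand1 lies at chr11:57719531-57723644 minus, Gata3 at chr2:9861889-9894845 minus and Isl1 at chr13:116434817-116446235 minus. Levels are gene totals and do not tell exons from introns or one transcript start from another.

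Promoter windows of 300 bases (250 before and 50 after the transcript start, from RefSeq on GRCm38.p6) were found for 5 of the 7 genes, with 2 windows for Gata2, so 6 windows in all. Those of the 3 members that were most restricted to N2a among these are printed to show the letters that factors of these families bind. Capitals mark, on either strand, CATCTG (an E-box form), GATAA (the GATA core) and TAATTA (a homeodomain core), and in the Hand2 window a TAATTA overlaps a reverse-strand GATAA. Hand2 is at chr8:57320733-57321032 plus, Phox2a at chr7:101818063-101818362 plus and Isl1 at chr13:116309639-116309938 minus.
Hand2 promoter: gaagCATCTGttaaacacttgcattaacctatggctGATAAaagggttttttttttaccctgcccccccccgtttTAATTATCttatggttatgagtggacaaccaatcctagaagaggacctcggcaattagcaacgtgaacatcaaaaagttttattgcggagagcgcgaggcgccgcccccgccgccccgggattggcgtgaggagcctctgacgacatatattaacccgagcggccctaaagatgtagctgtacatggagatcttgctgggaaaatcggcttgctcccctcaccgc
Phox2a promoter: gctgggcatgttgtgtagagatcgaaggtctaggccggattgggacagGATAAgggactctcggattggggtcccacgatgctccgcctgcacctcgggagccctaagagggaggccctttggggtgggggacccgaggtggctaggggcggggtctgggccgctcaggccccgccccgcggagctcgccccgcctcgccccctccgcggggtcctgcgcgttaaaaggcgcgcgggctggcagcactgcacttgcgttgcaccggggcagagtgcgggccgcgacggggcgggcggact
Isl1 promoter: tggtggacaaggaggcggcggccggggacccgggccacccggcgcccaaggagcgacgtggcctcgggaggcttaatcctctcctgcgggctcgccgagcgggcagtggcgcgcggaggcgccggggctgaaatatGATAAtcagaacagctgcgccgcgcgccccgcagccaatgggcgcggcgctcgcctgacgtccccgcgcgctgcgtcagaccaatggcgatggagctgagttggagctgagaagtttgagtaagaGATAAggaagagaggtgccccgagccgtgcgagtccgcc

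The Hand2 window held all 3 motifs, with 1 CATCTG, 2 GATAA and 1 TAATTA. The Phox2a window held 1 GATAA and the Isl1 window 2 GATAA, and neither held CATCTG or TAATTA (0 matches). The windows of Gata2 and Gata3 held none of the 3 motifs (0 matches). Over all 32851 mouse promoter windows of this length, CATCTG was found in 17.2%, GATAA in 25.4% and TAATTA in 5.29%, against 1, 3 and 1 of the 6 windows here. The general E-box CANNTG was found in 72.3% of all windows and in 5 of the 6. These matches are descriptions of letters, and no binding was measured.

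In N2a, Hand2 had the most UMIs of the 7 genes, 7258 or 404 CPM (interval 395 to 414). NIH/3T3 held 13 Hand2 UMIs, 1.11 CPM, and mESCs 22, 1.79 CPM. Hand2 was thus 364-fold higher in N2a than in NIH/3T3 (213 to 683) and 226-fold higher than in mESCs (149 to 361). Phox2a followed with 2259 UMIs, 126 CPM (121 to 131), against 4 UMIs, 0.342 CPM, in NIH/3T3 and 14 UMIs, 1.14 CPM, in mESCs. Its ratios were 368 (144 to 1352) over NIH/3T3 and 111 (65.9 to 203) over mESCs. For both genes the N2a interval lay far above those of the other lines.

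Isl1 was counted 493 times in N2a, 27.5 CPM (25.1 to 30.0), 5 times in mESCs, 0.406 CPM (0.132 to 0.947), and 0 times in NIH/3T3. Its N2a level was 67.7 times the mESC level (28.8 to 209) and at least 107-fold higher than in NIH/3T3 when the 0 there is set to 3 UMIs. The exact interval of that ratio, which also covers the error of the N2a count, starts at 86.7. Insm1 was lower, with 178 UMIs or 9.91 CPM (8.51 to 11.5) in N2a, 1 UMI in NIH/3T3 and 0 in mESCs. It was at least 40.7-fold higher in N2a than in mESCs with the 0 there set to 3 UMIs, or 32.8-fold by the lower end of the exact interval, and the ratio to the single NIH/3T3 UMI was 116 (20.5 to 4606). Both were low, and nearly all of their UMIs came from N2a.

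The GATA genes were shared between lines. Gata2 had 693 UMIs in N2a, 38.6 CPM (35.8 to 41.6), and 49 in each of the other lines, 4.19 CPM (3.10 to 5.54) in NIH/3T3 and 3.98 CPM (2.94 to 5.26) in mESCs. N2a was 9.21-fold above NIH/3T3 (6.89 to 12.6) and 9.71-fold above mESCs (7.26 to 13.2), and NIH/3T3 and mESCs were not told apart at this depth (ratio 0.949, interval 0.626 to 1.44, mESC over NIH/3T3). Gata3 was the only one of the 7 genes with over 10 UMIs to be highest outside N2a. It had 104 UMIs in mESCs, 8.44 CPM (6.90 to 10.2), 69 in N2a, 3.84 CPM (2.99 to 4.86), and 5 in NIH/3T3, 0.427 CPM (0.139 to 0.997). The mESC level was 2.20 times that of N2a (1.60 to 3.02) and 19.7 times that of NIH/3T3 (8.20 to 62.1). Hand1 was near the limit of detection throughout, with 2 UMIs each in N2a and mESCs and 0 in NIH/3T3.

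**Figure D1:**
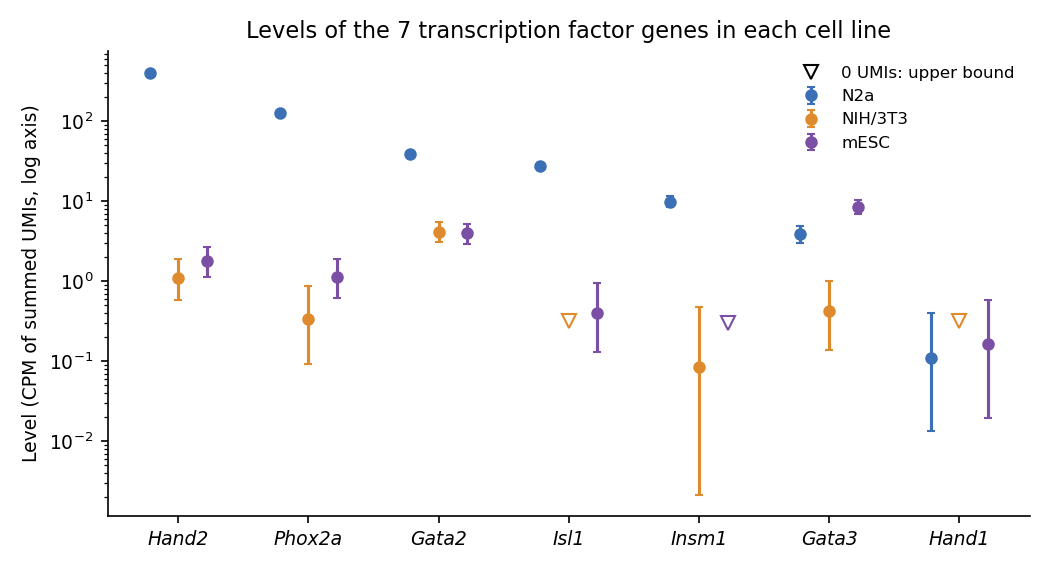
Level of each gene in each line (CPM of summed UMIs, logarithmic axis) with exact 95% Poisson intervals, and open triangles for the upper bound where 0 UMIs were counted. Hand2, Phox2a, Gata2, Isl1 and Insm1 are highest in N2a, Gata3 is highest in mESCs at 8.44 CPM, and the Hand1 intervals overlap.

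A fixed rule of size, a CPM + 1 at least 4 times that of the higher of the other lines, was applied to the 19248 genes with at least 10 UMIs over the 3 lines. In N2a it took 830 genes, 4.31%, and 5 of the 6 members with enough UMIs. On this scale the log2 fold was 7.18 for Hand2, 5.89 for Phox2a, 4.34 for Isl1, 3.33 for Insm1 and 2.93 for Gata2, and -0.96 for Gata3. The median over all genes was -0.36. Hand1 was not among the genes tested, with 4 UMIs in all. In NIH/3T3 the rule took 3.78% of genes and 0 members, and in mESCs 6.03% and 0 members. The mESC log2 fold of Gata3, 0.96, was below the rule's 4-fold.

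Levels of different genes were set side by side per kilobase of annotated exon, although a UMI counts a transcript and not its length. Hand2 stood at 171 CPM per kb in N2a and Phox2a at 61.6. Isl1 came next at 6.92, Gata2 at 4.81, Insm1 at 3.20, Gata3 at 0.845 and Hand1 at 0.0558. By CPM, Gata2 stood above Isl1, at 38.6 (35.8 to 41.6) against 27.5 (25.1 to 30.0). Their opposite order per kb follows from the annotated exon lengths alone (8024 bases for Gata2 and 3969 for Isl1), so the order depends on the measure. The 7 genes together made up 610.0 CPM in N2a (599 to 621), 6.15 CPM in NIH/3T3 (4.82 to 7.75) and 15.9 CPM in mESCs (13.8 to 18.3). Hand2 gave 66.3% and Phox2a 20.6% of the N2a UMIs of the group.

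The few UMIs in NIH/3T3 and mESCs were set beside free RNA, transcripts of one line carried into the cells of another. Apart from Hand2 and Phox2a, 77 genes were restricted to N2a, with a level of 50 CPM or more and a CPM + 1 exceeding that of NIH/3T3 and of mESCs by 50-fold or more. Their summed level in NIH/3T3 was 0.340% of that in N2a, and in mESCs 0.468%. Hand2 stood at 0.275% and 0.442% of its N2a level and Phox2a at 0.272% and 0.903%, against single-gene ranges of 0 to 1.21% and 0.0742 to 1.65%. These ranges are bounded by the 50-fold rule, which Hand2 and Phox2a also met. At the summed share, mESCs would hold 7.26 Phox2a UMIs in place of 14, 23.3 Hand2 UMIs in place of 22 and 1.58 Isl1 UMIs in place of 5. The part of free RNA in these low counts was not tested. Gata2 stood at 10.9% in NIH/3T3 and 10.3% in mESCs, where the summed share would give 1.53 and 2.23 UMIs in place of 49 and 49. Gata3 stood at 220% in mESCs, where that share would give 0.222 UMIs in place of 104, and at 11.1% in NIH/3T3, which rests on 5 UMIs.

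Within NIH/3T3, 49 cells held 1 Gata2 UMI each and 0 cells held more. In mESCs 42 cells held Gata2, with up to 4 UMIs in a cell, and 10 cells carried 34.7% of the 49 UMIs. Gata3 UMIs were present in 91 mESCs, 4.26% (3.44 to 5.20), with up to 3 in a cell. In 11 mESCs at least 2 Gata3 UMIs were found, where 1 constant level at the same depths would give 3.51 cells. The spread of Gata3 beyond counting error, as a coefficient of variation (CV), was 1.75 in mESCs.

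The list of trophectoderm genes was read beside Gata3 in mESCs. Of its 7 genes with enough UMIs, 4 passed the 4-fold rule in mESCs, beside 6.03% of all genes, and 0 in N2a, beside 4.31%. The list summed to 172 CPM in the mESCs with a Gata3 UMI and 157 CPM in those without one, and the correlation across 2137 cells was 0.0207. For the pluripotency markers it was 0.00526, at 5827 and 5767 CPM. Of the 13 lists, the fibroblast markers had the highest correlation with Gata3, 0.0838, at 1028 and 846 CPM. Fn1 alone made up 642 of the 857 CPM of that list in mESCs, and it stood lower in NIH/3T3, at 411 CPM. The correlation was not computed without Fn1. Next came the other sympathoadrenal factors, 0.0654, at 1436 and 1270 CPM. Of the 1280 CPM of that list in mESCs, Tbx3 gave 415 and Meis2 321, and both were lower in N2a, at 0.557 and 13.1 CPM. The correlation was not computed without them either. In counts this sparse these correlations are descriptions only.

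How the genes were spread over N2a cells was examined next. Hand2 was found in 1897 of 2323 cells, 81.7% (80.0 to 83.2), and Phox2a in 1199, 51.6% (49.6 to 53.7). Gata2 was found in 476 cells, 20.5% (18.9 to 22.2), Isl1 in 384, 16.5% (15.0 to 18.1), Insm1 in 162, 6.97% (5.97 to 8.09), Gata3 in 66, 2.84% (2.20 to 3.60), and Hand1 in 2. In NIH/3T3, a fibroblast line with 13 Hand2 UMIs, Hand2 was found in 0.638% of cells, at a median depth of 4863 UMIs. After each cell was thinned to 1000 UMIs, the N2a shares were 32.8% for Hand2, 11.8% for Phox2a, 3.87% for Gata2 and 3.27% for Isl1, so the share of cells depends on depth. Cells without Hand2 were shallow, with a median of 2733 UMIs against 7259 in cells with it.

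If every N2a cell had the same level of a gene, sampling at these depths would leave Hand2 in 84.2% of cells, Phox2a in 53.9%, Gata2 in 24.0% and Isl1 in 18.1%. The observed shares were slightly lower, for example 1897 cells against 1957 for Hand2 and 476 against 559 for Gata2. Cells with at least 2 UMIs were more frequent than under a constant level for Gata2, 136 against 110, and Isl1, 82 against 61.9, and less frequent for Hand2, 1472 against 1504, and Phox2a, 550 against 575. The CV beyond counting error was 0.331 for Hand2, 0.415 for Phox2a, 0.839 for Isl1 and 1.03 for Gata2. Among the 8960 genes with at least 200 N2a UMIs, whose median was 0.471, Gata2 lay at percentile 94.8 and Isl1 at 88.4, and Phox2a at 39.4 and Hand2 at 21.8. Hand2 and Phox2a were therefore spread over cells more evenly than the median gene, and Gata2 and Isl1 less evenly.

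**Figure D2:**
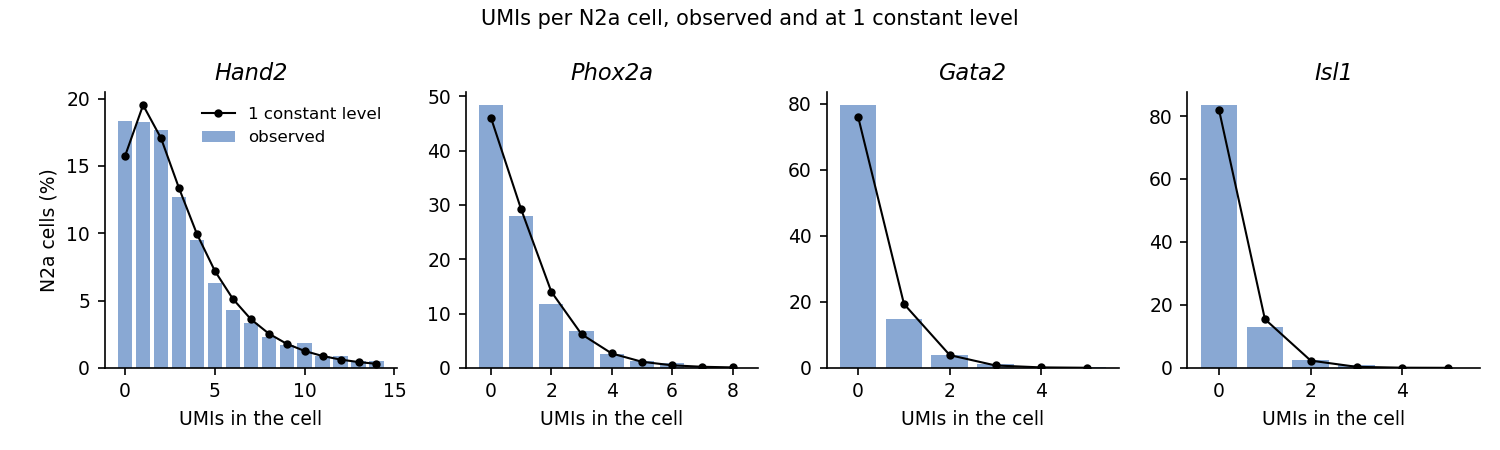
Percent of N2a cells (vertical axis) by UMIs in the cell (horizontal axis) for Hand2, Phox2a, Gata2 and Isl1, as observed (bars) and at 1 constant level in all cells at the same depths (line). Cells with 0 UMIs are more frequent than the line in all 4 genes, most so for Gata2, and the few cells with the highest counts lie beyond the axes of the first 3 panels.

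The 32 BC1 sequences of N2a are wells of 1 culture and 1 library, so their spread is a description and not a replicate error. Hand2 ranged from 332 to 490 CPM over the wells, with a median of 404, and Phox2a from 89.7 to 166, with a median of 129. Gata2 ranged from 7.20 to 57.1 CPM (median 36.0), Isl1 from 17.3 to 40.7 (25.6), Insm1 from 3.64 to 25.3 (9.15) and Gata3 from 0 to 8.04 (3.30). No well lacked Hand2, Phox2a, Gata2, Isl1 or Insm1 (0 wells), and 5 lacked Gata3. Beyond counting error, the CV between wells was 0.0775 for Hand2, 0.0271 for Phox2a and 0.169 for Gata2. Leaving out any 1 well moved the Hand2 level only between 400 and 407 CPM.

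**Figure D3:**
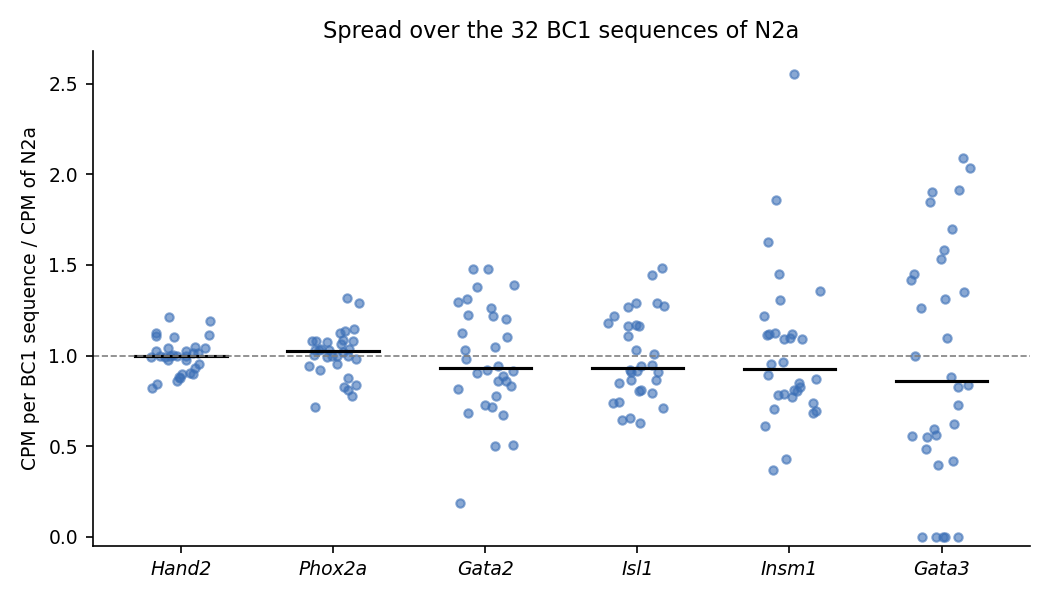
CPM of 6 of the genes (Hand1 left out) in each of the 32 BC1 sequences of N2a, divided by its CPM over all N2a cells. Points are wells, the black bar is their median and the dashed line is 1. The wells lie closest together for Hand2 and Phox2a, and Insm1 and Gata3, with the fewest UMIs, lie far apart, Gata3 at 0 in 5 wells.

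At least 1 of the 7 genes was found in 2073 N2a cells, 89.2% (87.9 to 90.5), against 3.49% of NIH/3T3 cells (2.73 to 4.38) and 7.77% of mESCs (6.67 to 8.99). The 250 N2a cells with none were shallow, with a median of 2140 UMIs. Most N2a cells held 1 or 2 of the genes (686 and 829 cells), 409 held 3, 130 held 4 and 19 held 5. Constant levels, independent of each other, would give 208 cells with none, 658 with 1, 806 with 2, 472 with 3, 154 with 4 and 23.6 with 5. The observed distribution thus lay slightly lower.

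Whether the factors varied together across N2a cells was described pair by pair. Pearson's r was computed on counts minus the count that depth alone would give, scaled by its Poisson error, over 2323 cells of 1 library. Of the 6 pairs between the 4 genes with at least 200 UMIs, Hand2 and Isl1 gave 0.0748, Phox2a and Hand2 0.0543, Phox2a and Gata2 0.0129, Phox2a and Isl1 0.00794, Gata2 and Isl1 -0.00907, and Hand2 and Gata2 -0.052. An r above 0.05 was reached by 2 of these 6 pairs and by 4.89% of all 40136320 pairs of the 8960 genes, of which the middle 95% ran from -0.0587 to 0.0638. Hand2 and Isl1 thus lay above that middle range and the other 5 pairs within it. Under 4 of the 5 alternatives Hand2 and Isl1 gave 0.067 to 0.0823, and with each cell thinned to 1000 UMIs they gave 0.0107, where Phox2a and Hand2 gave -0.000545 and 0 pairs were above 0.05. In counts this sparse, a correlation of this size is a description only.

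Cells that held both genes of a pair were counted as well. The number to compare with depends on the model. Independent constant levels at the depths of the cells would put Phox2a and Hand2 together in 1143 cells, Hand2 and Gata2 in 519, Hand2 and Isl1 in 392, Phox2a and Gata2 in 378 and Gata2 and Isl1 in 142, and fewer cells held both in each case, 1078, 423, 351, 308 and 107. Each gene alone was also found in fewer cells than that model gives. With the model rescaled to the observed share of each gene, the numbers were 1060, 428, 347, 308 and 110, close to those observed. On this rescaled model, 118 cells held Insm1 and Phox2a against 107, and 41 held Insm1 and Gata2 against 47.7. Gata3 and Insm1 met in 13 cells against 7.09, the largest relative excess among pairs without Hand1, on few cells.

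The Hand2 level was also read by groups of N2a cells that were made without the 7 genes. Cells were grouped into 5 clusters by their other genes. Cluster 1 (821 cells) was led by Itgam and Pkd2l1, cluster 2 (582 cells) by Nr4a2 and Bhlhe40, cluster 3 (539 cells) by 5330434G04Rik and Urgcp, cluster 4 (304 cells) by Gas2l3 and the mitotic genes Cenpf, Aspm and Ccnb1, and cluster 5 (77 cells) by Cmss1 and Il31ra. Cluster 5 held shallow cells, with a median of 1601 UMIs, and 11.6% ribosomal protein UMIs against 6.52% to 7.41% in the other clusters. The list of G2/M genes summed to 5733 CPM in cluster 4 (5651 to 5815) and 6068 in cluster 5 (5692 to 6462), and to 3950 or less in each other cluster. The clusters were given no cell type name.

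Hand2 stood at 357 CPM in cluster 1 (343 to 371), 383 in cluster 2 (364 to 403), 446 in cluster 3 (424 to 470), 483 in cluster 4 (459 to 507) and 619 in cluster 5 on 99 UMIs (503 to 754). Isl1 stood at 21.4 CPM in cluster 1 (18.2 to 25.1), 22.1 in cluster 2 (17.7 to 27.3), 34.4 in cluster 3 (28.4 to 41.3) and 39.6 in cluster 4 (33.1 to 47.1), and at 43.8 in cluster 5 on 7 UMIs (17.6 to 90.2). Its intervals in clusters 1 and 2 overlapped, and neither overlapped those of clusters 3 and 4. Phox2a was nearly level, from 119 in cluster 5 to 140 in cluster 2 (128 to 152). Gata2 ran from 31.4 in cluster 3 (25.6 to 38.0) to 42.4 in cluster 1 (37.9 to 47.4), and to 68.8 in cluster 5 on 11 UMIs (34.4 to 123). The highest and lowest of these levels among clusters 1 to 4 differed by 1.35-fold for Hand2 and 1.85-fold for Isl1.

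**Figure D4:**
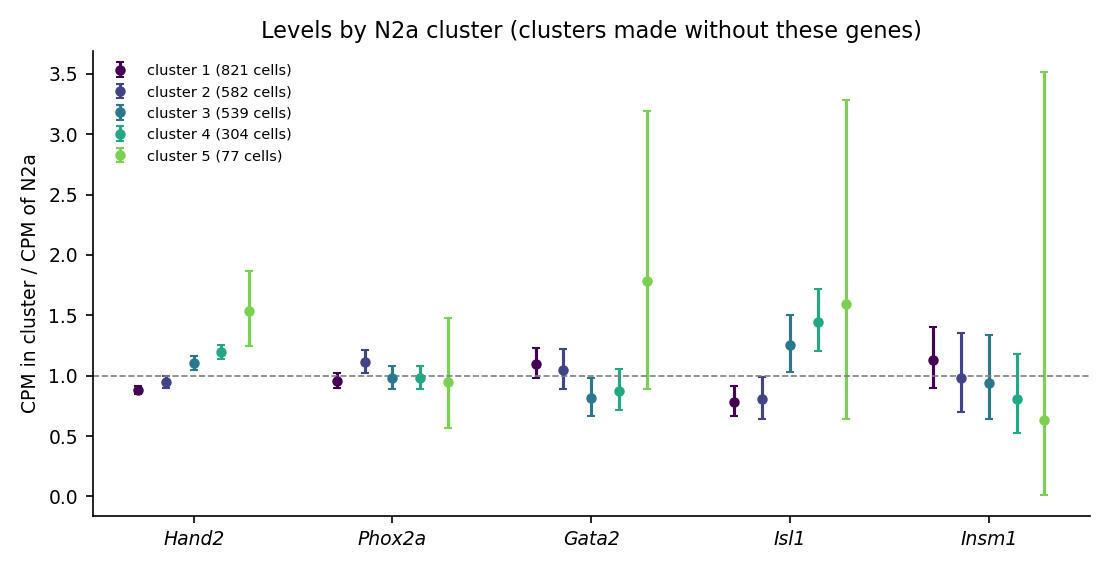
CPM of 5 genes in each N2a cluster, divided by the CPM over all N2a cells, with exact 95% Poisson intervals. Clusters were made without these genes, and the dashed line is 1. Hand2 and Isl1 are lowest in cluster 1, higher in clusters 3 and 4, and Phox2a stays near 1.

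N2a cells were also grouped by cell cycle genes, after thinning. Hand2 stood at 419 CPM in the G2/M group (400 to 438), 372 in the S phase group (355 to 391) and 413 in the rest (400 to 427). Isl1 stood at 29.1 (24.3 to 34.5), 21.6 (17.6 to 26.4) and 29.6 (26.1 to 33.4), and Phox2a at 119 (109 to 129), 126 (116 to 137) and 129 (122 to 137). Gata2 intervals overlapped in all 3 groups. Hand2 was therefore lowest in the S phase group, where its interval lay below those of the other groups. Isl1 was also lowest there, but its interval overlapped both others. Isl1 and Hand2 had r of -0.0617 and -0.12 with the S phase list. By depth, Hand2 went from 444 CPM (408 to 482) in the shallowest 25% of cells to 400 (387 to 413) in the deepest 25%. Phox2a went from 105 (87.8 to 124) to 123 (116 to 130), and for both genes the intervals of these groups overlapped. In the 25% of cells next below the deepest, with a median of 7875 UMIs, Phox2a stood at 136 (125 to 147). That interval lay above the Phox2a interval of the shallowest 25%. Hand2 stood there at 392 (374 to 411), and its interval overlapped that of the shallowest 25%.

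The genes whose residuals were most like those of each factor were named by rank among the 8960 genes. For Hand2 these were the ribosomal protein genes Rpl6 (r 0.169), Rpl38 (0.155) and Rpl35 (0.149) and the mitochondrial genes mt-Nd3 (0.149) and mt-Atp8 (0.146). Hand2 also had an r of 0.152 with the summed ribosomal protein UMIs and 0.0987 with the mitochondrial UMIs. For Phox2a they were Rps4x (0.109), Rpl6 (0.105) and Slc25a4 (0.105), the adenine nucleotide carrier of mitochondria, and the r with ribosomal UMIs was 0.0974. Gata2 and Isl1 had an r of 0.0163 and 0.00375 with the ribosomal UMIs. The part of ribosomal and mitochondrial RNA content in the levels of Hand2 and Phox2a was not tested.

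For Gata2 the most similar genes were Fn1 (0.173), which encodes fibronectin, Id3 (0.164), an inhibitor of basic helix-loop-helix factors, and Prkg1 (0.146), a cGMP-dependent kinase. Fn1 stood at 95.2 CPM in N2a cells without Gata2 (89.9 to 101), 138 in cells with 1 Gata2 UMI (125 to 151) and 180 in the 136 cells with at least 2 (162 to 200). Id3 went from 47.9 to 57.6 and 91.3 CPM and Prkg1 from 81.6 to 116 and 182 CPM. These genes were picked for their r with Gata2 in the same cells, so the steps restate that choice. Fn1 was also on the fibroblast list, whose summed level had an r of 0.121 with Gata2. Without Fn1 that list summed to 919 (902 to 936), 895 (864 to 928) and 1017 CPM (974 to 1061), so it was highest in the cells with at least 2 Gata2 UMIs, and the N2a markers summed to 1128, 1161 and 1009 CPM. Col1a1, Col1a2, Col3a1 and Cav1, chosen after their values were seen, together stood at 1.44, 0.886 and 0.972 CPM, against at least 28.5 CPM for each in NIH/3T3. These values rest on 18, 3 and 2 UMIs (0.118 to 3.51 CPM for the last), too few to compare the groups, and these genes are only a part of the list. The part of fibroblast RNA in the Gata2 values was not tested. Hand2 ran the other way, from 412 (400 to 423) to 396 and 374 CPM (348 to 402), and Phox2a was 124, 132 and 127 CPM. Cells with more Gata2 UMIs were also deeper, with medians of 5474, 8116 and 13736 UMIs. The part of depth in these differences was not tested.

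For Isl1 the most similar genes were neuronal: Syt1 (0.105), the calcium sensor of synaptic vesicles, Rgs4 (0.0829), a regulator of G protein signaling, and Gap43 (0.0828), a growth cone protein. Syt1 went from 471 CPM in cells without Isl1 (460 to 483) to 568 with 1 UMI (541 to 595) and 642 with at least 2 (598 to 689). Gap43 went from 171 to 193 and 208 CPM, and Rgs4 from 24.7 to 27.4 and 41.4. The level of Hand2 ran the same way, from 394 (383 to 404) to 424 and 472 CPM (434 to 513). Phox2a was 124 (118 to 130), 129 (116 to 142) and 141 CPM (120 to 163). Syt1, Rgs4 and Gap43 were picked for their r with Isl1 in the same cells, so their steps restate that choice. Cells with more Isl1 UMIs were also deeper, with medians of 5747, 8373 and 13750 UMIs, and CPM scales for depth but does not remove its error.

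**Figure D5:**
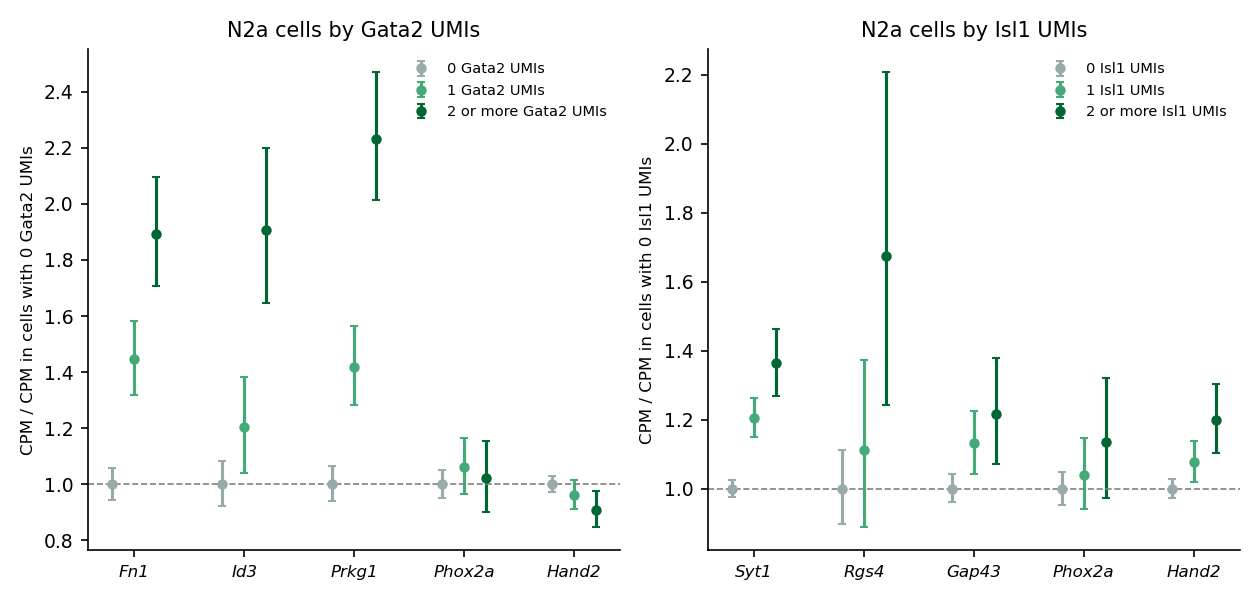
CPM of the genes most similar to Gata2 (left) and Isl1 (right), and of Phox2a and Hand2, in N2a cells with 0, 1 or at least 2 UMIs of that factor, divided by the CPM in cells with 0, with exact 95% Poisson intervals on the numerator. Fn1, Id3, Prkg1, Syt1, Rgs4 and Gap43 were chosen for their r with the factor in these cells. Hand2 is at 374 CPM in cells with at least 2 Gata2 UMIs and at 472 in those with at least 2 Isl1 UMIs, and the Phox2a intervals overlap between groups.

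Genes known to act with these factors were read in the same way. Of 20 other sympathoadrenal and neuroblastoma transcription factors with enough UMIs, 6 passed the 4-fold rule in N2a, beside 4.31% of all genes. Lmo1, a LIM-only cofactor, stood at 121 CPM against at most 2.11 in the other lines, Tbx20, a T-box factor, at 69.6 against at most 3.08, and Sox11 at 55.2 against at most 2.76. The most abundant of the list, Pbx3 (553 CPM), Zeb2 (277) and Sox4 (227), were also present in NIH/3T3, at 250, 138 and 94.2 CPM. The list's median log2 fold was 1.07 against -0.36 over all genes.

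Of 19 catecholamine and adrenergic effector genes, which include direct targets of these factors, 9 passed in N2a, beside 4.31% of all genes. The list's median log2 fold was 1.78. Gfra1 (327 CPM) and Ret (286), the receptor pair for GDNF, Chgb (317), a granule protein, Chrna3 (157), a nicotinic receptor subunit, and Slc18a2 (148), the vesicular monoamine transporter, were all far above NIH/3T3 and mESCs. The enzymes that define noradrenaline synthesis were low: Th had 89 UMIs, 4.96 CPM (3.98 to 6.10), and Dbh 16 UMIs, 0.891 CPM (0.509 to 1.45), in N2a, and both were named after their values were seen. N2a thus held Hand2 at 404 and Phox2a at 126 CPM beside little Th and Dbh. Of the 6 members computed, Hand1 being too rare, Phox2a had the highest r with the summed list (0.0781) and Gata2 the lowest (-0.0748).

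Of 17 partner genes, 2 passed in N2a, beside 4.31% of all genes, and the list's median log2 fold was -0.071. The highest level was in N2a for 6 of the 17, in NIH/3T3 for 6 and in mESCs for 5. Across N2a cells every member computed had a negative r with the summed list, from -0.126 for Hand2 to -0.00148 for Gata3. The 2 that passed were Tcf4 and Ssbp2. Tcf4, an E protein with which Hand factors pair, was at 1625 CPM against 251 in NIH/3T3 and 265 in mESCs. Ssbp2, a cofactor of LIM complexes, was at 462 against 52.4 and 27.1. Tcf12, another E protein, was at 452 CPM in N2a and 332 and 221 in the other lines. Zfpm1, the GATA cofactor FOG-1, was at 17.8 against 2.65 and 8.60. Of 14 relatives of the members with enough UMIs, 1 passed in N2a, Lhx1, at 3.62 CPM against at most 0.0812. The median log2 fold of the relatives was -1.50. Counts this small, beside the 4.31% of all genes, give no reading. Gata4 was at 31.9 CPM in N2a and 15.1 in NIH/3T3.

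Lists of other tissues in which these factors act were counted by the same rule. Of the neural crest and Schwann cell precursor genes, 0 of 7 passed in N2a and Sox10 was at 3 UMIs. Of the primitive endoderm genes 0 of 5 passed, and of the mesoderm and cardiac genes 1 of 7, Nkx2-5, at 25.1 CPM against 4.36 in NIH/3T3 and 1.14 in mESCs. Beside the 4.31% of all genes, lists this short give no reading. All lists were chosen with earlier results of these data known, and their counts are descriptions.

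Overlapping genes limit what 2 of the levels mean, since the strand setting of the counting is not given in the sources used here. Hand2os1, an antisense RNA that overlaps Hand2, had 5133 UMIs in N2a, 286 CPM, against 0.94 in NIH/3T3 and 1.14 in mESCs, and Gm34030, also antisense there, 322 UMIs or 17.9 CPM. Hand2os1 was found in 70.7% of N2a cells, and its r with Hand2 was 0.0265. Inppl1, which overlaps the end of Phox2a on the other strand, was at 53.5 CPM in N2a, 59.2 in NIH/3T3 cells and 23.1 in mESCs, so it was not restricted to N2a as Phox2a was. Those of the RNAs overlapping Gata2 and Gata3 that were counted had at most 8 UMIs in any line. Without strand, reads of Hand2 and its antisense partners cannot be told apart.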

How the data were processed

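The authors made FASTQ files with bcl2fastq, split the reads by BC1, trimmed the TSO (template switching oligo) sequence with Cutadapt, and aligned and counted reads with STARsolo on GRCm39 and GENCODE M30. The deposited values are UMI counts, not normalized, for each gene in every possible barcode, in 3 matrices by line and 1 pooled matrix. The strand and feature settings were not given in the sources used here, so overlapping genes could share reads.

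The filter of the study's methods was applied (a minimum of 1000 UMIs per cell and a mitochondrial limit of 20%). The matrices held 20662884 (N2a), 13505027 (NIH/3T3) and 13875356 (mESC) UMIs. Doublets were not called. Levels are CPM of summed UMIs. Shares were compared after thinning to 1000 UMIs. The r used Poisson residuals of genes with at least 200 N2a UMIs. N2a clusters came from 2000 variable genes, 30 principal components, 30 neighbors and the Leiden algorithm at a resolution of 0.5, without the 7 members. The steps were tested on simulated data. Python 3.11.15, scipy 1.17.1, scanpy 1.11.5, R 4.3.3 and edgeR 4.0.16 (for TMM factors) were used.

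Members and lists were chosen with earlier results of these data known. The genes named are the members, from each list the 3 with the highest CPM and the 3 with the highest fold in N2a, the 5 most similar to Hand2 and 3 most similar to each other member with at least 200 UMIs, and overlapping genes or those starting within 5 kb. Outside this rule, Th, Dbh, Ddc, Stmn2, Nefm, Nefl, Tbx3, Meis2, Col1a1, Col1a2, Col3a1, Cav1 and the leading genes of the clusters were named after their values were seen. The alternatives changed the cell filter, matrix, weighting, denominator, scaling, fold, added CPM, gene minimum and depth handling.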

Additional observations from a re-analysis of the deposited data

How the results depend on the processing

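No paired analysis was possible because all lines shared 1 library, no line had a replicate, and the labels carry no replicate numbers. The number of members past the 4-fold rule in N2a was 5 under 14 of the 16 alternatives and 4 under the others: Gata2 was lost at an 8-fold rule, and Insm1 was lost with 5 added to the CPM, where its log2 fold was 1.55. Leaving out mitochondrial and ribosomal genes raised the summed level in N2a from 610.0 to 672 CPM. The share of N2a cells with any member was 89.2%, 45.6% after thinning to 1000 UMIs and 93.5% with a minimum of 2000 UMIs per cell. Thinning also left 0 pairs with an r above 0.05, and the r of Phox2a and Hand2 changed sign to -0.000545, and the cause was not tested. The median log2 fold of all genes in N2a was -0.361 with CPM, -0.38 with TMM factors and -0.393 with median-of-ratios factors. With no replicate of any line, no difference has a replicate check, and levels at or below the limit of a count of 0 could not be told from absence.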
